A study of Mus musculus with 6 samples.

Results

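The 2 GFP libraries of a study of YAP variants in neonatal mouse cardiomyocytes (CMs) describe the nuclear transcriptome of CMs at postnatal day 9. They were chosen by their labels alone and are 2 of the 6 libraries of the series. Wildtype ICR mice received 1e+11 viral genomes of AAV9 under the skin at postnatal day 6, and hearts were taken 3 d later. In the GFP group the virus carried GFP under the cardiac troponin T (cTnT) promoter, and in the YAP6SA and YAP5SA groups, with 2 libraries each, it carried a YAP variant under the same promoter. All groups therefore share the virus, the promoter and the day of injection, and no uninjected heart was analysed here. CM nuclei were pulled down with an antibody to PCM-1, and poly-A RNA was sequenced without strand information. The replicate number is used here as the batch number, so that GFP library 1 is in batch 1 and GFP library 2 in batch 2. The labels state that hearts were taken for each virus but do not tie a heart to a library, and p-values measure only the spread between these libraries. The levels are those of RNA from isolated nuclei, and transcripts of the mitochondrial genome, which are not nuclear, were counted with it.

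In the days after birth, mouse CMs leave the cell cycle, replace fetal sarcomere proteins with adult ones, and turn from glucose and lactate to fatty acids as their main fuel. Much of this change is a switch between genes of one family: *Myh7* gives way to *Myh6*, *Tnni1* to *Tnni3*, and general forms of metabolic enzymes to muscle forms. Which member of each family a CM nucleus transcribes is widely read as a sign of its maturity.

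GFP library 1 held 18832871 gene counts and library 2 held 16362077, against 14552847 to 19615627 in all 6 libraries. A count of 0 leaves room for 3 counts, or 0.159 CPM in library 1 and 0.183 CPM in library 2, where CPM is the usual scaling of a count to the depth of its library. A count was found on 23144 genes in either library. At least 1 CPM in both libraries was reached by 13314 genes, of which 12167 were protein coding. Levels are given as CPM, or as a length-scaled level, which is the count per kilobase of merged exons scaled to the same sum in each library, and is the scale on which genes are compared. The median detected gene stood at 23.1 CPM and at a length-scaled level of 24.7. Shares of all counts carry a counting error that is small at this depth (95% Wilson intervals reached at most 0.0207 percentage points to either side). Over genes as a whole, the spread between the 2 libraries was larger than counting error. Shares within a family can rest on few counts. Their counting error was not computed and can exceed the SD given with them. Intervals and floors cover counting error only.

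The nuclear RNA was led by the contractile apparatus. The 10 genes with the most counts took 8.43% and 9.53% of the 2 libraries, and 50% of all counts lay on 830 and 720 genes. *Myh6*, the fast cardiac myosin heavy chain (chromosome 14 of GRCm38, 54941921 to 54966927, minus strand), had the most counts, 340575 in library 1 and 429433 in library 2, or 18084 and 26246 CPM. It was followed by *Tnnt2*, the troponin that anchors the complex to tropomyosin, with 15196 and 16495 CPM, and by *Mybpc3*, the cardiac myosin-binding protein C, with 10131 and 12130 CPM. *Ttn*, the titin spring (chromosome 2, 76703980 to 76982547, minus strand), had 7020 and 7525 CPM. Of the 20 genes with the most counts, 7 were members of the 16 sarcomere families described below. The others included *Ivns1abp*, a Kelch-domain protein that binds actin, at 9557 and 9062 CPM, *Atp2a2*, the calcium pump of the sarcoplasmic reticulum, at 3606 and 3996 CPM, *Slc4a3*, an anion exchanger, at 2624 and 2957 CPM, and *Vegfa*, the endothelial growth factor, at 2758 and 2740 CPM.

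Per length, the order changed. Only 11 genes were among the 20 highest on both scales. The highest length-scaled level was that of *mt-Co1*, the mitochondrially encoded cytochrome oxidase subunit, at 19184 and 16880, followed by *Myh6* at 11695 and 17419 and *Mybpc3* at 10585 and 13007. The ranges of *mt-Co1* and *Myh6* over the 2 libraries overlapped, so their order did not hold beyond the spread. *Actc1*, the cardiac actin, reached 10369 and 7876, *Myl2*, the ventricular regulatory light chain, 7525 and 8641, and *Tnnc1*, the cardiac troponin C, 6608 and 6207. *Ttn*, which ranked 5 by counts, ranked 547 per length, at 261 and 288. Further short transcripts entered the 20 highest, among them *Eno3*, the muscle enolase, at 3146 and 2945, *Nexn*, a Z-disc actin-binding protein, at 2819 and 3051, and *Fabp3*, the heart fatty acid-binding protein, at 3542 and 1948.

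**Figure D1:**
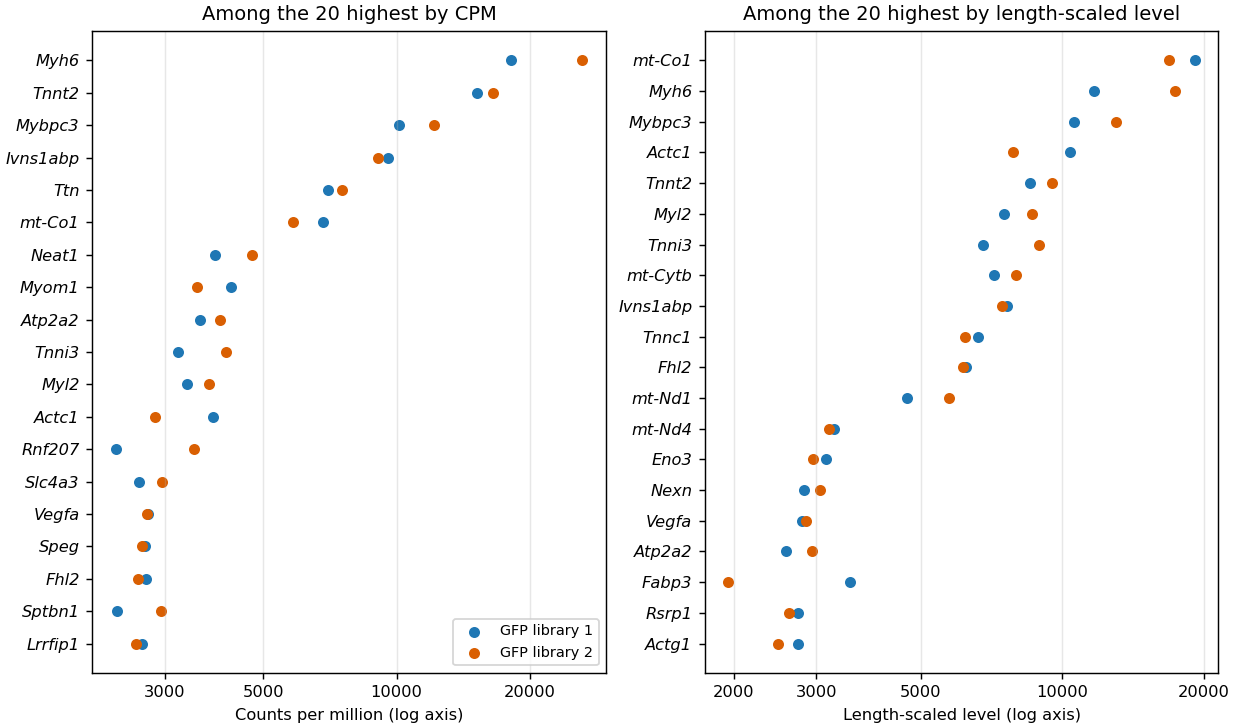
Genes among the 20 with the highest mean CPM (left) and the highest mean length-scaled level (right) in the GFP libraries, on log axes, with 1 point per library and without a gene that is not reported here. *Myh6* leads by CPM at 18084 and 26246, and *mt-Co1* and *Myh6* lead per length with overlapping ranges.

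The labelled cell type was checked against its markers. All 10 CM markers were detected, with a summed level of 60721 CPM in library 1 and 73542 CPM in library 2, and *Ryr2*, the ryanodine receptor, had 1677 and 1904 CPM. The lowest of them was *Nkx2-5*, a cardiac homeobox factor, at 72.4 and 75.4 CPM. *Pcm1*, which encodes the protein bound in the pulldown, had 54.9 and 61.4 CPM. Protein-coding genes took 97.7% of the counts in both libraries, and the mitochondrial chromosome took 1.23% and 1.19%, without reads that map to several places. *Neat1*, a noncoding RNA that stays in the nucleus as the scaffold of paraspeckles, ranked 8 by counts, at 3906 and 4732 CPM.

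Isoform choice was described over 84 families of related genes with 274 members, as the share of each member in the summed length-scaled level of its family. The same member led in both libraries in 78 families. In 73 families the levels of the leading and the next member did not overlap between libraries, and in 11 they did. The leading member held over 90% of its family in 27 families, 50% to 90% in 47 and less than 50% in 10. The median share of the leading member was 80.9% in 16 sarcomere families, 82.8% in 27 metabolic families, 89.9% in 25 families of ion handling and 63.9% in 13 cell cycle families. Of the 274 members, 227 had at least 1 CPM in both libraries, 12 had no count in either and 21 had 3 counts or fewer in each. These shares compare genes and not splice forms, so that the long and short forms of titin, for example, are not separated here. With 2 libraries, no test between members was made.

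The 3 microRNA loci below lie within the myosin genes at the head of this list, and their mature sequences are from RefSeq on GRCm38.p6. The sequences of the host genes were not compared. Capitals mark the seed, bases 2 to 8, which pairs with target transcripts. The mature sequences lie within *Myh6* (miR-208a, chr14:54949072-54949093, minus strand), *Myh7* (miR-208b, chr14:54975710-54975731, minus strand) and *Myh7b* (miR-499, chr2:155622893-155622913, plus strand), and no base of their hairpins is in an annotated exon of the host.
miR-208a-3p: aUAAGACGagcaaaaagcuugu
miR-208b-3p: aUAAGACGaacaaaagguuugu
miR-499-5p: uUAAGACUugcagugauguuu
The miR-208 pair shares its seed and differs at 3 of 22 bases in all, and the seed of miR-499 differs from theirs at 1 base. Poly-A libraries do not measure mature microRNAs, and reads on an intronic hairpin cannot be told apart from those of the unspliced host. The *Mir208a* locus had 37 and 49 counts, the *Mir208b* locus 700 and 884, and *Mir499* 0 and 0, which allows up to 3.

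Among the myosin heavy chains of striated muscle, *Myh6* held 92.8% ± 0.461 (mean ± SD, n = 2 libraries) of the family. The next member was *Myh7b*, a slow-type myosin of heart and muscle, at 4.64% ± 0.337, with 17723 and 20020 counts. *Myh7*, the main myosin of the fetal ventricle, held 2.58% ± 0.123, with 12581 and 14721 counts, below *Myh7b* in both libraries. The skeletal myosins *Myh1*, *Myh2* and *Myh4* had no counts, *Myh8* had 1 and 0 and *Myh3* 4 and 5. *Mhrt*, a noncoding RNA that lies antisense to *Myh7*, had 672 and 895 counts, which cannot be told apart from *Myh7* reads without strand information.

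The troponins were nearly all of the cardiac form. *Tnni3*, the adult cardiac inhibitory troponin, held 98.2% ± 0.216 of its family, with 60522 and 67650 counts. *Tnni1*, the slow skeletal form of the fetal heart, held 1.73% ± 0.244, with 2047 and 1867 counts, so that *Tnni3* stood 57.1-fold above it per length. *Tnnt2* held 98.4% and *Tnnt1*, its slow skeletal relative, 1.52%. *Tnnc1* was the only troponin C with counts, and the skeletal *Tnnc2* had none. *Mybpc3* held 99.8% of the myosin-binding proteins C, and its fast skeletal relative *Mybpc2* had 355 and 324 counts.

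In the thin filament and the light chains other members held larger shares. *Actc1* held 65.8% ± 0.344 of the actins, and the cytoplasmic *Actg1* and *Actb* held 19.1% and 11.4%. *Acta1*, the skeletal actin of the fetal heart, held 0.789%, with 1380 counts in library 1 and 173 in library 2. *Tpm1*, the main cardiac tropomyosin, held 86.8% ± 2.98. *Myl2* held 85.1% ± 5.24 of the regulatory light chains and the atrial *Myl7* 12.6% ± 4.10. *Myl3*, the ventricular essential light chain, held 77.4% ± 2.70 of its family, ahead of the general *Myl6* at 15.8% and the atrial and fetal *Myl4* at 6.09% in library 1 and 5.91% in library 2.

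At the Z-disc and the M-band the 2 libraries stood further apart than in the troponins. *Actn2*, the sarcomeric alpha-actinin, held 66.1% of its family in library 1 and 79.7% in library 2. *Myom1*, the myomesin that crosslinks myosin at the M-band, held 88.0% and 73.3%, and *Myom2*, its form in adult fast fibers and heart, held 11.9% and 26.4%, with 9095 and 17651 counts. *Ldb3*, a PDZ and LIM protein of the Z-disc, held 67.7% ± 3.14 of its group. *Flna*, the general filamin, held 61.9% ± 0.280 and led the muscle filamin *Flnc* at 33.8%. *Tmod1*, the cardiac cap of the thin filament end, held 55.2%, and the skeletal *Tmod4* held 40.7% in these nuclei. Of the 100-base stretches of *Tmod1*, 30.1% also occur in transcripts of other genes, against 0% for *Tmod4*. The share of *Tmod1* was 64.7% scaled to exon bases that no other gene shares, 65.3% by CPM and 50.8% by the longest transcript. Of the nonmuscle and smooth muscle myosins, *Myh9* and *Myh14* led in 1 library each, at 39.8% ± 1.86 and 39.0% ± 8.15.

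**Figure D2:**
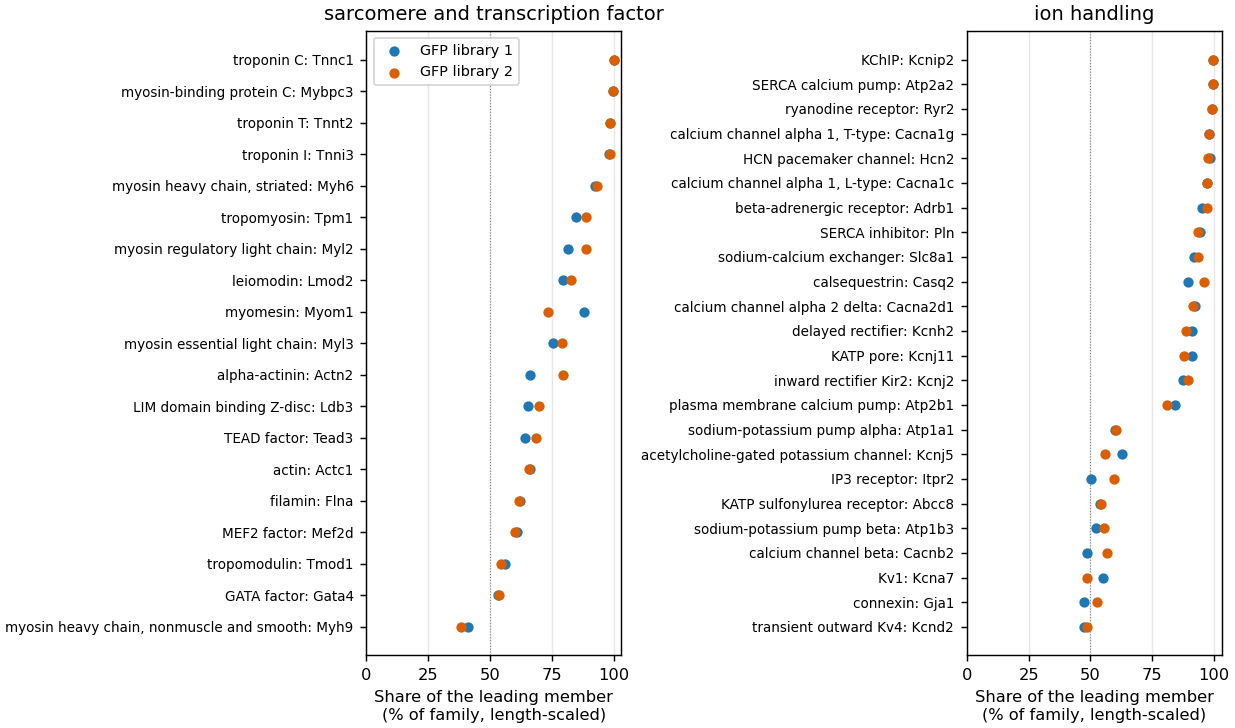
Share of the leading member in its family, in percent of the summed length-scaled level, for sarcomere and transcription factor families (left) and ion handling families (right), with 1 point per GFP library and without a family that is not reported here. Troponins, *Mybpc3*, *Atp2a2* and *Ryr2* sit above 98%, while *Gja1*, *Kcnd2* and *Myh9* sit near or below the dotted line at 50%.

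Glucose handling was led by muscle forms. *Slc2a4*, the insulin-responsive glucose transporter, held 97.8% ± 0.379 of its family, and the fetal transporter *Slc2a1* had 160 and 67 counts. *Hk2*, the muscle hexokinase, held 82.8% ± 2.63, ahead of *Hk1* at 12.5%. *Pfkm*, the muscle phosphofructokinase, held 83.5% ± 2.79 and *Eno3* 91.2% ± 0.350. *Pgam2*, the muscle phosphoglycerate mutase, held 88.6% ± 0.161, ahead of the general *Pgam1*, and *Pygm*, the muscle glycogen phosphorylase, held 68.1% ± 2.17, ahead of *Pygb* at 29.8%. *Ldhb*, the lactate dehydrogenase subunit of heart, held 84.5% ± 1.11 over *Ldha*. *Aldoa* and *Pkm* held 99.8% and 100% of the aldolases and pyruvate kinases, and the liver pyruvate kinase *Pklr* and the testis genes *Ldhc* and *Cox8c* had no counts.

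Muscle and general forms of the respiratory chain stood side by side. *Cox6a2*, *Cox7a1* and *Cox8b*, the heart and muscle forms of 3 cytochrome oxidase subunits, held 64.1% ± 3.30, 61.1% ± 1.65 and 61.9% ± 1.26 of their families, and *Cox6a1*, *Cox7a2* and *Cox8a* held the rest. By counts without the length scaling, *Cox7a2* and *Cox8a* had more reads than *Cox7a1* and *Cox8b*. *Slc25a4*, the adenine nucleotide translocase of heart, held 80.1% ± 0.801 over *Slc25a5*. *Vdac1* and *Vdac2*, pores of the outer mitochondrial membrane, could not be ordered, at 40.5% and 39.7%.

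The creatine kinases differed in their order. *Ckmt2*, the muscle mitochondrial form, held 99.9% of its family. In the cytosol *Ckb*, the brain form that is also made in the fetal heart, held 73.8% ± 5.20, with 3247 and 2186 counts, and *Ckm*, the muscle form, held 26.2% ± 5.20, with 948 and 936 counts. The brain form led in both libraries.

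Genes of fatty acid use showed the heart forms, without a clear order at the carnitine step. *Fabp3* held 96.2% ± 0.771 of the fatty acid-binding proteins, *Acsl1*, which activates fatty acids, 84.3% ± 1.80, and *Acacb*, the acetyl-CoA carboxylase of the mitochondrial surface, 99.3% ± 0.210. Of the carnitine palmitoyltransferases, which admit fatty acids to mitochondria, the liver form *Cpt1a* held 45.7% ± 4.29 and the muscle form *Cpt1b* 44.4% ± 6.13. Each led in 1 library, and their length-scaled levels overlapped between libraries. *Cpt1a* had 2509 and 1970 counts and *Cpt1b* 910 and 993. The count of *Cpt1b* is limited by overlap with its neighbours, since 75.6% of its 100-base stretches also occur in transcripts of other genes and 18.6% of its exon length is its own. Scaled to exon bases that no other gene shares, *Cpt1b* led the family and the share of *Cpt1a* was 15.6%. *Pdk4*, the kinase that closes glucose oxidation in favour of fat, held 85.0% of its family in library 1 and 55.2% in library 2, with 13216 and 2725 counts.

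All 20 fatty acid oxidation genes were detected, with a median length-scaled level of 193 and *Acadm*, the medium-chain acyl-CoA dehydrogenase, highest at 1245. All 21 glycolysis genes were detected at a median of 283, led by *Eno3* at 3045, with the lactate exporter *Slc16a3* lowest at 5.94. All 17 genes of the TCA cycle were detected at a median of 300.1, with *Suclg2*, a subunit of succinyl-CoA ligase, lowest at 14.9. The median detected gene stood at 24.7. The summed levels of the libraries were close, at 5576 and 5492 CPM for fatty acid oxidation and 7781 and 7677 CPM for glycolysis.

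Among regulators of metabolism, *Esrra*, an estrogen-related receptor that drives mitochondrial genes, held 97.7% ± 0.279 of its family, with 13378 and 9530 counts, whereas *Esrrg* had 257 and 278. *Thra*, the main thyroid hormone receptor of heart, held 72.5% ± 1.46. *Ppargc1a* and *Ppargc1b*, coactivators of mitochondrial genes, held 43.1% and 42.9% and led in 1 library each. *Ppara* and *Ppard*, receptors for fatty acids, held 47.7% and 42.1%, with length-scaled levels that overlapped between libraries. The order of *Ppara* and *Ppard* also changed with the longest transcript in place of the merged exons.

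**Figure D3:**
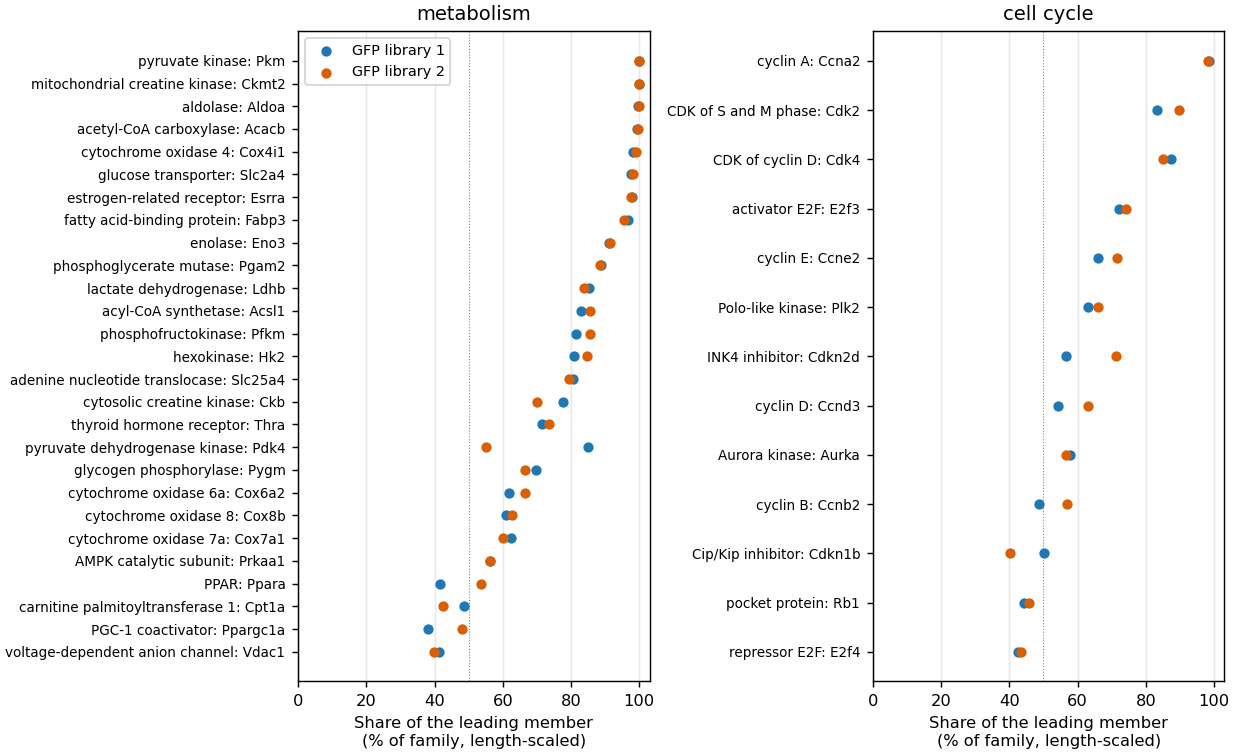
Share of the leading member in its family, in percent of the summed length-scaled level, for metabolic (left) and cell cycle (right) families, with 1 point per GFP library. *Pdk4* shows the widest gap, at 85.0% in library 1 and 55.2% in library 2, and only *Ccna2* among the cell cycle leaders sits above 90%.

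The promoters of several muscle forms of metabolic enzymes held less CG than those of their general partners. CG is the dinucleotide that is methylated in mammals and is dense in promoters of genes used in every cell. The RefSeq window from 250 bases before to 50 bases after the start was read on GRCm38.p6 for 15 metabolic families with a muscle or heart form and a general form, and in 7 of them the start of both partners lay within 100 bases of the annotated one. The muscle form had fewer CG in 5 of these 7 pairs. *Hk2* went the other way, with 25 against 1 for *Hk1*, and *Ckmt2* and its partner *Ckmt1* had 4 each. Only the window nearest the annotated start of each gene was read, and whether that start was used in these nuclei was not tested. The 5 pairs were picked first, after their windows had been seen, and the others were read later, so no test was made. In the 5 pairs the muscle forms *Pgam2*, *Cox8b*, *Eno3*, *Pygm* and *Cox7a1* had 1, 2, 3, 4 and 7 CG in 300 bases. Their general partners *Pgam1*, *Cox8a*, *Eno1*, *Pygb* and *Cox7a2* had 30, 19, 14, 21 and 20. Of 7457 protein-coding genes at a mean of at least 1 CPM whose window met the same distance limit, 11.8% had 7 CG or fewer and 75.3% had 14 or more, with a median of 21. The 100 bases before the start are given for *Pgam2* and *Cox8b*, the muscle forms with the fewest CG in the window, and for their partners, with CG in capitals. *Pgam2* lies at chr11:5803797-5803896 on the minus strand, *Pgam1* at chr19:41911771-41911870 on the plus strand, *Cox8b* at chr7:140900447-140900546 and *Cox8a* at chr19:7217617-7217716, both on the minus strand.
Pgam2: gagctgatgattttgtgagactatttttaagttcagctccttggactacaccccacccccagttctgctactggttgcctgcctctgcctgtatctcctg
Pgam1: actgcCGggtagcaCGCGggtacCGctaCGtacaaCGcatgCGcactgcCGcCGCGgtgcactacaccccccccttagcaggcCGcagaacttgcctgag
Cox8b: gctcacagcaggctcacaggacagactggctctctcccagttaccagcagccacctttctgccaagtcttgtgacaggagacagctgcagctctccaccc
Cox8a: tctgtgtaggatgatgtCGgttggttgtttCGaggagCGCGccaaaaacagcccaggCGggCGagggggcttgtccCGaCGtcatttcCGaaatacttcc
The stretches of *Pgam2* and *Cox8b* hold 0 CG, and those of *Pgam1* and *Cox8a* hold 11 and 9. Both members of each pair were transcribed in these nuclei, at length-scaled levels of 608 and 603 for *Pgam2*, 77.2 and 78.3 for *Pgam1*, 1234 and 1081 for *Cox8b* and 790 and 642 for *Cox8a*.

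At most steps of calcium cycling the cardiac gene made up nearly all of its family. *Ryr2*, the release channel, held 99.2% ± 0.0658 of the ryanodine receptors, with 31582 and 31151 counts, and the skeletal *Ryr1* had 3 and 1. *Atp2a2* held 99.6% ± 0.104 of the pumps, *Casq2*, the cardiac calcium store protein, 92.6% ± 4.72, and *Slc8a1*, the sodium-calcium exchanger, 92.7% ± 1.34. *Pln*, which restrains the pump in the ventricle, held 93.7% ± 0.649 over the atrial *Sln*, although 49.6% of its 100-base stretches are shared with other transcripts. *Cacna1c*, the cardiac L-type channel, held 97.2% ± 0.0046, and the retinal *Cacna1f* had no counts.

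Channels of the fetal and the pacemaking heart were also present. *Cacna1g*, a T-type calcium channel, had 12072 and 10944 counts and held 97.9% ± 0.0889 of its family, at length-scaled levels of 275 and 295. *Cacna1c* stood at 298 and 400, so that the ranges of the channels did not overlap but lay next to each other. *Hcn2*, a pacemaker channel that is also found in the ventricle, had 2806 and 2670 counts and held 97.8% ± 0.680, and *Hcn4*, that of the sinus node, had 79 and 111.

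Among potassium channels, *Kcnh2*, the rapid delayed rectifier, held 89.9% ± 1.81 of its group, with 12491 and 11051 counts, and *Kcnq1*, the slow one, had 431 and 616. *Kcnip2*, the subunit of the transient outward current, had 8749 and 9818 counts and 99.6% of its family. The pores it serves were lower, *Kcnd2* at 263 and 227 counts and *Kcnd3* at 402 and 335, and their order turned with the length used. *Kcnj2*, the main inward rectifier, held 88.4% ± 1.28, with 1181 and 742 counts. *Kcnj11*, the pore of the ATP-sensitive channel, held 89.5% ± 2.12, and its receptors *Abcc8* and *Abcc9* stood side by side at 54.0% and 46.0%, with length-scaled levels that overlapped between libraries. *Kcnj5* led *Kcnj3* in the acetylcholine-gated channel by 59.1% to 40.9%, but *Kcnj3* led when only unshared exon bases were used.

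*Gja1*, the ventricular connexin, held 47.4% and 52.6% of the connexins in the 2 libraries, and *Gjc1*, the connexin of the early heart, held 44.1% ± 1.01, with length-scaled levels that overlapped between libraries. *Adrb1* held 96.0% ± 1.33 of the beta-adrenergic receptors. Members without counts in the remaining ion families included *Kcnip1* and *Cacna2d4*.

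Cell cycle genes were detected at low levels. All 30 S phase genes reached 1 CPM in both libraries, with a median length-scaled level of 10.8, from *Chaf1a*, a chromatin assembly factor, at 1.58 to *Rfc2*, a clamp loader subunit, at 53.2. All 30 G2/M genes did so as well, with a median of 8.76, and *Cenpa*, the centromeric histone, stood far above the rest at 251. *Cenpa* alone made up 50.9% of the mean summed CPM of its list. *Mki67*, the proliferation marker, had 1047 and 862 counts, *Top2a*, the mitotic topoisomerase, 399 and 190, and *Cdk1*, the mitotic kinase, 306 and 135. In bulk nuclei, few cycling cells and a low level in every nucleus cannot be told apart, and the same holds for every level given here.

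Within the families, *Cdk4* held 86.1% ± 1.53 over *Cdk6* and *Cdk2* 86.6% ± 4.58 over *Cdk1*. *Ccnd3* led the D cyclins, which open the cycle, at 58.5% ± 6.22, with 450 and 337 counts, and *Ccnd1* was lowest at 55 and 25. *Ccna2*, the cyclin of S and G2 phase, had 162 and 116 counts against 1 and 1 for the germline *Ccna1*. *Ccnb1* and *Ccnb2*, the mitotic cyclins, led in 1 library each. *E2f3* led the activating E2F factors at 73.1% ± 1.39, and *E2f1* had 74 and 49 counts. Of the inhibitors, *Cdkn1b* led at 45.2% ± 6.92, with 50.1% in library 1 and 40.3% in library 2. *Cdkn1a* followed at 33.5% ± 8.88 and led by the longest transcript. The log2 ratio of *Cdkn1b* to *Cdkn1a* per length was 0.449 ± 0.608. *Cdkn2a*, which marks senescent cells, had no counts. *Rb1* led the pocket proteins, which hold E2F in check, at 45.1% ± 1.09.

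The factors bound by YAP and those of the cardiac program were led as follows. *Tead3* held 66.3% ± 2.98 of the TEAD factors, the DNA-binding partners of YAP, with 5460 and 5792 counts. *Tead1* held 22.9% ± 2.17, *Tead2* 10.2% and *Tead4* 0.638%, with 28 and 30 counts. *Mef2d* and *Mef2a*, muscle enhancer factors, held 60.5% and 36.7%, but *Mef2a* led by the longest transcript and by CPM, and *Mef2c* held 1.08%. *Gata4* and *Gata6* held 53.5% and 45.9%, without overlap between libraries, but *Gata6* led by the longest transcript and by CPM.

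Chamber markers were mostly ventricular. The 5 ventricular markers summed to 5056 and 5302 CPM and the 8 atrial markers to 503 and 391 CPM. *Irx4*, a ventricular homeobox factor, had 358 and 366 CPM, and *Bmp10*, a growth factor of atrial trabeculae, 13.0 and 7.27 CPM. *Nppb*, a natriuretic peptide of the stretched heart, had 6279 and 2542 counts, and *Nppa*, its atrial relative, 242 and 149. Per length *Nppb* was 28.7-fold and 18.9-fold above *Nppa*, although 43.9% of the 100-base stretches of *Nppa* are shared with other transcripts. Of the conduction system markers, *Cntn2*, a cell adhesion protein, had 212 counts in each library and *Shox2*, a sinus node factor, 38 and 11.

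Transcripts of other cell types were present, with sums far below that of the CM list. Their levels were not low against all genes, however. The median length-scaled level was 47.7 for fibroblast and 30.6 for endothelial markers, against 24.7 for detected genes and 4692 for CM markers. Fibroblast markers were all detected and made up 0.149% of the counts of library 1 (95% Wilson interval 0.148% to 0.151%) and 0.0880% of library 2 (0.0866% to 0.0894%), with *Col3a1*, a collagen, highest at 541 and 343 CPM and *Tcf21*, a fibroblast factor, at 22.4 and 13.6 CPM. Endothelial markers summed to 737 and 520 CPM, with *Egfl7*, a secreted vessel protein, at 325 and 219 CPM and *Pecam1*, the junction protein, at 47.2 and 29.9 CPM. Macrophage markers summed to 73.4 and 97.3 CPM, led by the growth factor receptor *Csf1r* at 20.4 and 25.4 CPM. Mural and smooth muscle markers summed to 1156 and 1174 CPM, of which *Smtn*, a protein of contractile cells, gave 83.0%, and *Tagln*, the smooth muscle transgelin, had 5 counts and 1, although 48.3% of its 100-base stretches are shared with other transcripts. These sums stand against 60721 and 73542 CPM for the CM list.

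Markers of several further cell types had lower sums, though single genes such as *Hbb-bs*, at 31.5 and 35.6 CPM, stood well above the detection limit. Epicardial markers summed to 43.5 and 30.1 CPM, with *Wt1*, the epicardial factor, at 13.9 and 12.7 CPM. Hemoglobin and other erythroid genes summed to 49.2 and 55.7 CPM, where 49.7% to 79.5% of the 100-base stretches of *Hbb-bs*, *Hbb-bt*, *Hba-a1* and *Hba-a2* are shared. Schwann and neuronal markers summed to 42.1 and 55.7 CPM, of which *Sox10*, the glial factor, had 6 and 18 counts and *Th*, the tyrosine hydroxylase of catecholamine neurons, had none. Lymphocyte markers summed to 3.88 and 5.93 CPM and adipocyte markers to 0.265 and 0.428 CPM, with the hormone *Lep* at 0. The part of these transcripts in the levels of shared genes such as *Myl6* or *Flna* was not tested.

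**Figure D4:**
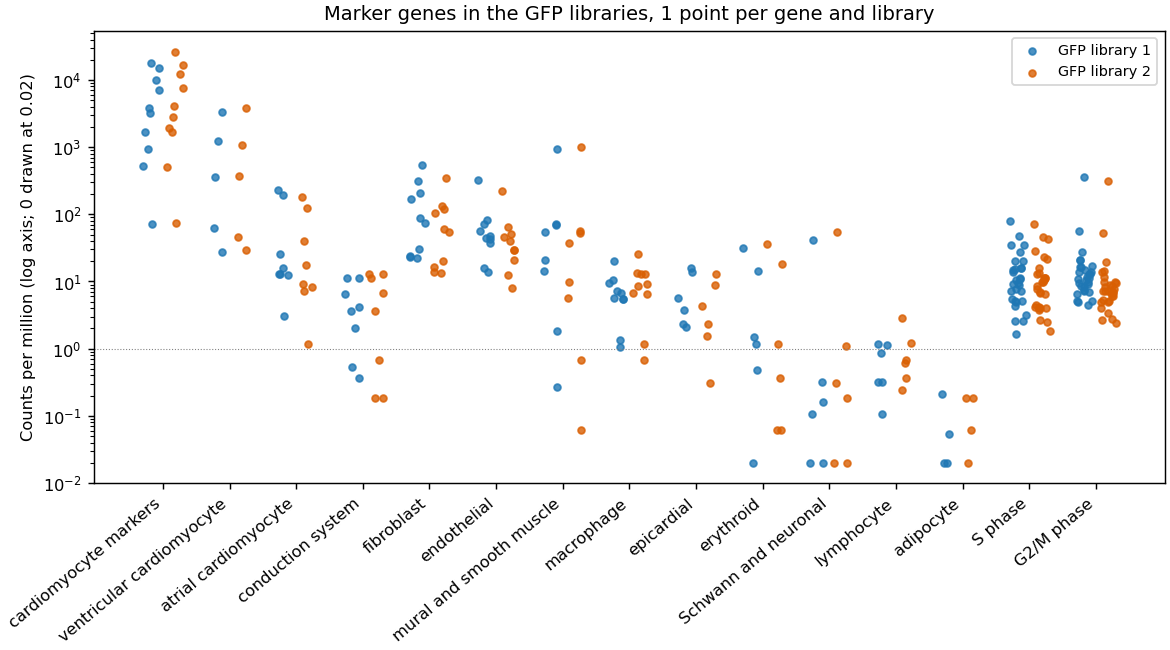
CPM of each marker gene in the GFP libraries on a log axis, by gene list, with 1 point per gene and library, genes at 0 drawn at 0.02 and a dotted line at the detection limit of 1 CPM. CM markers lie between 72.4 and 26246 CPM, while most S phase and G2/M genes lie near 10 CPM and adipocyte markers lie below 1 CPM.

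The 2 GFP libraries differed from each other by more than counting error, with a chi-square of 25.3 per degree of freedom over genes. The median absolute difference was 0.249 on the log2 CPM scale over detected genes. The median ratio of library 2 to library 1 was -0.11, and 419 of 13314 detected genes (3.15%) were over 2-fold higher in library 1 and 139 (1.04%) over 2-fold higher in library 2. Of the 227 family members detected, 14 were over 2-fold higher in library 1 and 4 in library 2. *Acta1* had the largest gap, 6.93-fold, followed by *Pdk4* at 4.21-fold. Others higher in library 1 were *Tpm2*, a slow and smooth muscle tropomyosin, *Myl9* and *Acta2*, smooth muscle light chain and actin, *Casq1*, the skeletal calsequestrin, *Ccnb1* and *Ccnb2*. Those higher in library 2 were *Myom2*, *Myom3*, *Tnni2* and *Cacna2d2*.

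The lists moved in blocks between the GFP libraries. All 10 fibroblast and all 10 endothelial markers were higher in library 1, with median log2 ratios of -0.68 and -0.57 against -0.11 over all detected genes. Of 30 G2/M genes 29 were higher in library 1, with a median of -0.69, and of 30 S phase genes 23 were, with a median of -0.20, against 8442 of the 13314 detected genes. Of 10 CM markers 8 were higher in library 2, with a median of 0.15, and of 9 macrophage markers detected 7 were, with a median of 0.38. The metabolic lists lay near the median of all genes, at -0.13 for fatty acid oxidation, -0.13 for glycolysis and -0.12 for the TCA cycle. Whether the markers of other cells had a part in the difference of the G2/M genes was not tested.

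The sex-linked genes also separated the libraries. *Xist*, the RNA that coats the inactive X chromosome, had 1 count in GFP library 1 and 9350 in library 2, 8 and 10550 in the YAP6SA libraries of batches 1 and 2, and 0 and 10320 in the YAP5SA libraries. The Y-linked *Ddx3y*, *Eif2s3y*, *Uty* and *Kdm5d* had counts in all 6 libraries, and in GFP library 2 their CPM was 0.552 to 0.718 of that in library 1. Batch 2 therefore held *Xist* and Y-linked transcripts together, and batch and sex cannot be told apart here.

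Whether genes differed between the batches beyond the spread was tested over all 6 libraries with edgeR's quasi-likelihood test and a term for group. Of 13323 genes, 8 (0.0600%) were higher in batch 2 and 19 (0.143%) were lower at an adjusted p under 0.05, and 1617 had an unadjusted p under 0.05. Of 236 family members tested, 2 passed, both lower in batch 2, and *Acta1* was one of them. It fell by 1.92 on the log2 scale (SE 0.303, adjusted p = 0.0493 by edgeR), from 1380 to 173 counts in GFP, 3412 to 1636 in YAP6SA and 937 to 214 in YAP5SA. *Pdk4* did not pass, with 701.8 and 167 CPM in GFP, 827 and 609 in YAP6SA and 292 and 243 in YAP5SA. Of the other cell markers *Postn*, a matrix protein of young fibroblasts, fell by 0.97 (SE 0.127, adjusted p = 0.0295 by edgeR). The sex genes *Xist*, *Uty*, *Eif2s3y* and *Kdm5d* passed. Other large changes were falls of *Arhgef19* by 1.79 and of *Gm38534* by 1.45. Rises were those of *AC149090.1* by 2.35, of *Agtr1a*, an angiotensin receptor, by 1.20 and of *Cd1d1*, a lipid antigen presenter, by 1.15. *Gm47283*, which is also annotated on the Y chromosome, rose by 1.00, whereas *Uty*, *Eif2s3y* and *Kdm5d* fell. The count of 27 calls was 6 without YAP6SA replicate 1, 5 without YAP6SA replicate 2, 478 without YAP5SA replicate 1 and 596 without YAP5SA replicate 2. With RLE scaling *Acta1* narrowly missed the threshold, with an adjusted p of 0.0514 by edgeR and a range of 1.28e-28 to 0.0514 over all alternatives. *Postn* missed it without either GFP or either YAP6SA library.

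**Figure D5:**
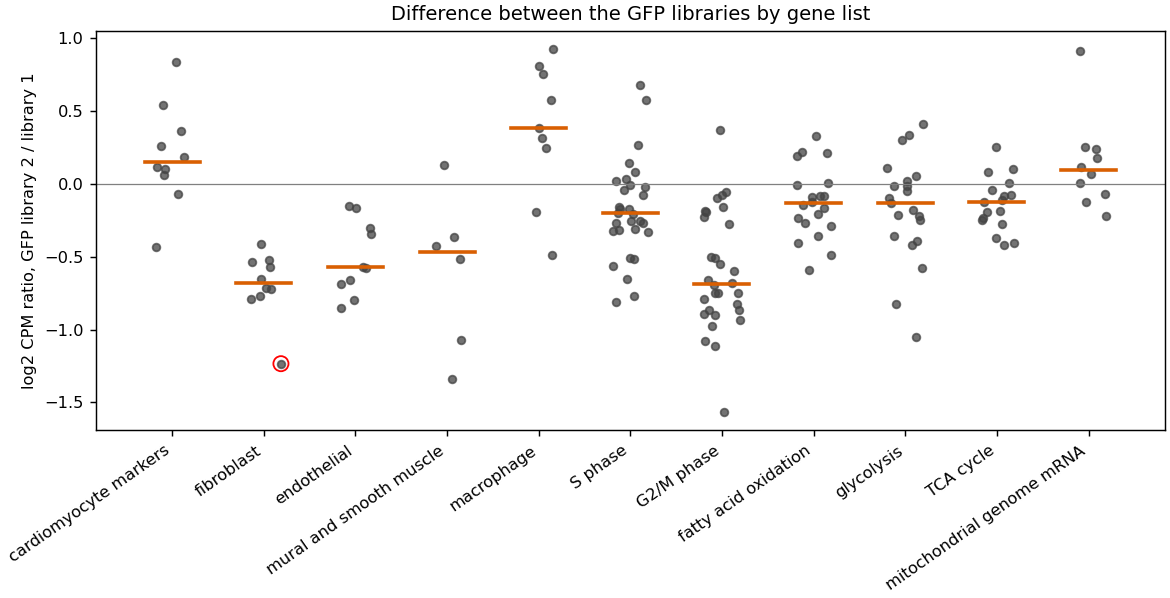
Log2 ratio of CPM in GFP library 2 to library 1 for each detected gene of 11 lists, with 1 point per gene, a bar at the median of the list and a red ring where the gene differed between batches by edgeR. All fibroblast and endothelial points lie below 0, and *Postn* is the ringed gene.

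To show where the baseline stands in the series, GFP was set against the mean of the YAP6SA and YAP5SA groups with edgeR and a batch term. Of 13323 genes, 172 (1.29%) were higher in GFP and 416 (3.12%) were lower. Of 236 family members tested, 5 were higher in GFP and 18 lower, with 8 of 57 sarcomere and 5 of 34 cell cycle members among the lower ones. *Acsl1* was higher in GFP by 0.99 on the log2 scale (SE 0.177, adjusted p = 0.0194 by edgeR), and *Kcnj2* by 0.85 (SE 0.160, adjusted p = 0.0243 by edgeR). *Acsl1* had 671.7 and 641 CPM in GFP, 432 and 445 in YAP6SA and 333 and 207 in YAP5SA. *Kcnj2* had 1181 and 742 counts in GFP, 980 and 867 in YAP6SA and 326 and 262 in YAP5SA, so that GFP and YAP6SA overlapped and YAP5SA lay below both. *Ckb* was lower by 0.95 in GFP (log2 difference -0.95, SE 0.164, adjusted p = 0.0179 by edgeR). It had 172 and 134 CPM in GFP, 204 and 200 in YAP6SA and 400 and 525 in YAP5SA, so that YAP6SA lay nearer to GFP than YAP5SA did. Of 20 fatty acid oxidation genes 6 were higher in GFP and 0 lower, with a list median of 0.58 against -0.0049 over all genes tested. Of 30 S phase genes 14 were lower and of 30 G2/M genes 11, with medians of -0.86 and -0.93, and none was higher. The summed S phase level was 458 and 412 CPM in GFP, 480 and 517 in YAP6SA and 995 and 1392 in YAP5SA. The summed G2/M level was 739 and 577 CPM in GFP, 655 and 591 in YAP6SA and 1403 and 1669 in YAP5SA. In GFP, *Cenpa* alone gave 50.9% of the G2/M sum, and a sum without it was not computed. YAP6SA lay slightly above GFP in the first sum and within its range in the second, YAP5SA stood far above both, and the variants were not compared with GFP one by one here. Of 10 mitochondrial genome mRNAs tested 8 were lower, with a median of -0.87. None of the 10 CM markers and none of the fibroblast or endothelial markers passed. The CM list still had a median of 0.40, with 9 of 10 higher in GFP. Its sum was 60721 and 73542 CPM in GFP, 57047 and 70607 in YAP6SA and 51069 and 35995 in YAP5SA. The fibroblast and endothelial lists had medians of -0.25 and -0.10, with 9 of 10 and 10 of 10 lower in GFP.

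The member with the highest mean GFP share also led in all 4 YAP libraries in 70 of the 84 families and not in 14. This split does not separate a change from the GFP spread, since the same member led both GFP libraries in only 78 families. The *Cpt1*, *Vdac*, PGC-1 and PPAR families, among the 14, had no common GFP leader. Nor had the B cyclins and the nonmuscle and smooth muscle myosins, among the 70. In the YAP5SA libraries *E2f1* led *E2f3*, *Rbl1* led *Rb1*, *Cdkn1a* led *Cdkn1b* and *Pygb* led *Pygm*. *E2f1* had 74 and 49 counts in GFP and 315 and 517 in YAP5SA. The skeletal *Myh8*, at 1 and 0 counts in GFP, had 5 and 6 in YAP6SA and 536 and 1170 in YAP5SA. The count of 588 calls depended on the libraries, at 46 without GFP replicate 2, 352 without GFP replicate 1, 154 without YAP6SA replicate 1, 1227 without YAP5SA replicate 2 and 3326 without YAP5SA replicate 1, and without the replicate block it was 118. Without the replicate block 0 of the 5 family members stayed higher in GFP and 6 of the 18 stayed lower, and 0 of 6 fatty acid oxidation, 4 of 14 S phase, 1 of 11 G2/M and 0 of 8 mitochondrial genes stayed past the threshold. *Acsl1* then had an adjusted p of 0.0565 by edgeR and *Kcnj2* of 0.0672. *Acsl1*, *Kcnj2* and *Ckb* also missed the threshold without GFP replicate 2 and without YAP6SA replicate 1, and *Kcnj2* without GFP replicate 1.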

How the data were processed

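RNA-seq libraries of PCM-1-bound CM nuclei were used, 2 each for GFP, YAP6SA and YAP5SA. The authors mapped reads with STAR (version not given in the sources used here) to mm10 with the Ensembl GRCm38.94 annotation, and the values they deposited are raw counts of reads on each gene. Reads outside genes, ambiguous between genes or mapped to several places are not in the gene counts. Of 54532 genes, 54495 were named from GENCODE M21, and 37 stayed without a name. CPM used all gene counts. Length-scaled levels used merged exons, and genes with under 200 bases of exon got none. Since the filter on detection was at least 1 CPM in both GFP libraries, low members enter only the family shares. The GFP transcript itself is not analysed here.

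Batches, and GFP against the mean of the YAP groups, were compared with edgeR 4.0.16 in R 4.3.3 (quasi-likelihood test, TMM scaling, terms for group and batch, Benjamini-Hochberg adjustment) on the 13323 genes with a median log2 CPM over 1 in at least 1 group. The fit was tested on simulated data. The batch term is the replicate block. Its pairing follows the replicate number of the labels, which is used as the batch number. Libraries of a batch deviated together across genes only in part. The correlation of deviations was 0.368 between GFP and YAP6SA, 0.101 where GFP was set beside YAP5SA, and 0.176 between the YAP groups. Alternatives were RLE or upper quartile scaling, no filter, edgeR's likelihood ratio test, DESeq2 1.42.0, no replicate block, each library left out, other lengths and CPM for the shares, and other detection limits. Lengths of unshared exons were added after the data were seen.

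Named were the 20 highest genes on each scale, the leading and next member of each family and members without counts, 2 to 4 members of each list by level, the 5 largest changes in each direction between batches, members past the threshold or over 2-fold apart in GFP, and the sex genes. Some genes that this rule names are not reported here. The families, lists and tests were chosen with earlier results of these data known.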

Additional observations from a re-analysis of the deposited data

How the results depend on the processing

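The 14 genes followed for the batches and the 65 followed for the groups were those named genes that passed the threshold in the main fit. No fold change among them changed direction under the alternatives run, which was likely from the start given that choice. In every alternative that left no library out, 12 of the 14 and 13 of the 65 stayed past the threshold. The number of genes that differed between batches, 27, was 485 without a filter on low counts, 349 with edgeR's likelihood ratio test and 181 with DESeq2, and with a library left out it ran from 5 to 596. The number that differed between GFP and the YAP groups, 588, was 1796 without the filter, 1565 with the likelihood ratio test, 1081 with DESeq2 and 118 without the replicate block, and with a library left out it ran from 46 to 3326. The cause was not tested, except that fewer samples enter when a library is left out and 27396 genes enter without the filter. A lone library of a group is then assumed to vary like the others. RLE and upper quartile scaling gave 23 and 39 genes for the batches and 575 and 636 for the groups. The share of mural and smooth muscle markers was 0.117% of all counts and 0.118% without mitochondrial genome genes.

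The same gene led in 74 of 84 families with the longest transcript, in 72 by CPM, in 81 with unshared exons and in 81 with either GFP library alone. The 20 highest genes per length shared 17 with the longest transcript and 19 with unshared exons, and the 20 highest by CPM shared 19 without mitochondrial genome genes. Detected genes numbered 14376 at 10 counts and 14460 at a length-scaled level of 1. At 2 libraries, 1 per batch, differences between members that lie within the spread cannot be ordered, and a count of 0 allows up to 3.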

Other observations

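Most immediate early genes and several imprinted noncoding RNAs were also higher in GFP library 1. The largest gaps were those of *Fos*, a stress-induced transcription factor, with 441 and 104 counts, *Atf3*, a stress factor of the same kind, with 244 and 57, and *Egr1*, a growth-induced zinc finger factor, with 514 and 159. Of their list, 6 of 7 detected genes were higher in library 1, against 8442 of all 13314 detected genes. *Nr4a1* went the other way, at 61.9 and 64.4 CPM. *Meg3*, *Rian* and *Mirg*, noncoding RNAs of an imprinted cluster on chromosome 12, had 2245 and 1189, 2381 and 921, and 300 and 80 counts. None of these differed between batches by edgeR at an adjusted p under 0.05.

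Of the 13 mRNAs of the mitochondrial genome, *mt-Co1* had 128322 and 95592 counts, and *mt-Co3* and *mt-Atp6* had 87 and 142, and 39 and 31. Of the 100-base stretches of *mt-Co3* and *mt-Atp6*, 99.9% and 99.5% also occur in transcripts of other annotated genes, against 30.8% for *mt-Co1* and 0% for *mt-Cytb*, which had 35466 and 33441 counts. Reads that map to several places are not in the gene counts, and the levels of these genes were not compared with each other.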
